A study of Drosophila melanogaster with 4 samples.

Results

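On the X chromosome of Drosophila melanogaster, 986 of the 5330 H3K79me1-enriched regions in the list for the replicate set ended at or before position 20422827. This limit is the length of the arm, 22422827 bp, less the proximal 2 Mb, the end nearest the centromere. Regions were chosen by position alone and not by any measured value. The same limits held 1006 of the 5484 regions of ChIP replicate 1 and 958 of the 5107 regions of ChIP replicate 2. They left out 38 X regions of the replicate set, 35 of replicate 1 and 38 of replicate 2. The last region inside the limit ran from 20382470 to 20396436 (13.97 kb, 89.6th percentile of the scores in its list), and the first outside it from 20897022 to 20899660 (2.64 kb, 36.2th percentile). The limit thus fell in a stretch of 500585 bp in which the replicate set had no region. Arms 2L, 3L and 3R, likewise without their proximal 2 Mb, served as the background, with 2933 regions in the replicate set, 3130 in replicate 1 and 2840 in replicate 2.

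The study profiled H3K79me1 by chromatin immunoprecipitation and sequencing (ChIP-seq) in formaldehyde-crosslinked whole embryos of the wild-type strain Oregon-R, aged 14 to 16 h and laid in population cages. All 4 samples shared strain, genotype and stage, and they were 2 ChIP libraries and 2 inputs, chromatin sequenced without the antibody step. Each ChIP replicate had its own region list, and a further list was made for the replicate set. The labels give neither the sex of the embryos nor their cell types, so the lists average over whole embryos.

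H3K79 lies on the exposed face of the nucleosome core, and its methylation is laid down by the Dot1 family of enzymes, grappa in flies. The mark is known mainly from the bodies of transcribed genes. The fly X is the chromosome on which males, with a single copy, raise transcription through the MSL dosage compensation complex, which also binds within transcribed genes.

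A region is a stretch that the authors called as enriched, and the covered share is the percentage of sequence inside regions. The lists give no read counts, so the depth behind a region is unknown and it has no counting error here. Values are given for each ChIP replicate, or as mean ± SD of the 2 replicates. Whether the replicates are separate collections of embryos is not stated, so this SD may be technical. An exact test on 2 libraries cannot give a p below 0.5, and regions are not replicates, so no comparison of X with the other arms has a p-value. Positions are on release 5 of the genome. Gene positions on that release were not used here, so regions are named by position only.

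The first comparison asked whether X carried as much of the mark as the autosomal arms. It carried about as much. Regions covered 32.7% of X in replicate 1 and 33.4% in replicate 2, against 32.2% and 34.1% of the background arms. X was higher in replicate 1 and lower in replicate 2, so the difference of -0.136 percentage points ± 0.812 (SD, n = 2) was smaller than its spread. Arm by arm, the mean share was 33.0% ± 0.517 on X, 32.0% ± 1.18 on 2L, 35.1% ± 1.81 on 3L and 32.5% ± 1.03 on 3R (SD, n = 2 each). X lay above 2L and 3R and below 3L in each replicate.

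The covered sequence was divided differently on X, with fewer broad regions. Regions of at least 20 kb numbered 43 in replicate 1 and 51 in replicate 2 on X, or 2.11 and 2.50 per Mb. The background arms had 3.08 per Mb in replicate 1 and 3.80 per Mb in replicate 2. The density on X was 0.670 ± 0.0186 (SD, n = 2) times that of the background. It was lower than on each of 2L, 3L and 3R in each replicate, with ratios from 0.596 to 0.708, and likewise in the replicate set, with ratios from 0.695 to 0.834. These broad regions held 21.2% and 26.0% of the covered base pairs of X in the 2 replicates, against 30.3% and 37.6% of those of the background arms. The widest X region measured 81691 bp in replicate 1 and 81056 bp in replicate 2, against 106580 and 128396 bp on the background arms, which also held more regions from which to draw a maximum. In replicate 1 the widest on 2L and 3L, 73294 and 73755 bp, were below that on X. The density ratio was 0.776 for regions of at least 15 kb and 0.843 for regions of at least 30 kb, so its size depends on the width chosen. Regions of at least 50 kb were few, and X did not have the fewest. They numbered 5 and 7 on X in the 2 replicates, against 4 and 5 on 2L and 7 and 11 on 3L.

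Below that width X was as dense as, or denser than, the other arms. Regions under 20 kb numbered 47.2 per Mb on X in replicate 1 and 44.4 in replicate 2, against 42.0 and 37.1 on the background arms. X exceeded 2L and 3R in each replicate, but 3L had nearly the same density, with X at 1.00 and 1.03 times its value. Over all widths X had 49.3 regions per Mb in replicate 1 and 46.9 in replicate 2, against 45.1 and 40.9 on the background arms. The difference was 5.11 regions per Mb ± 1.29 (SD, n = 2). Against single arms it was 7.15 for 2L, 8.19 for 3R and -0.334 for 3L. A typical region was of ordinary width. On X the median width came to 4273.5 bp in replicate 1 and to 4273 bp in replicate 2, against 4210 and 4737 bp on the background arms, a ratio of 0.959 ± 0.0799 (SD, n = 2). The middle 50% of X regions spanned 2183 to 8295 bp in replicate 1, and 2314 to 8536 bp in replicate 2. The narrowest were 1301 bp in each, the smallest width in either list.

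**Figure D1:**
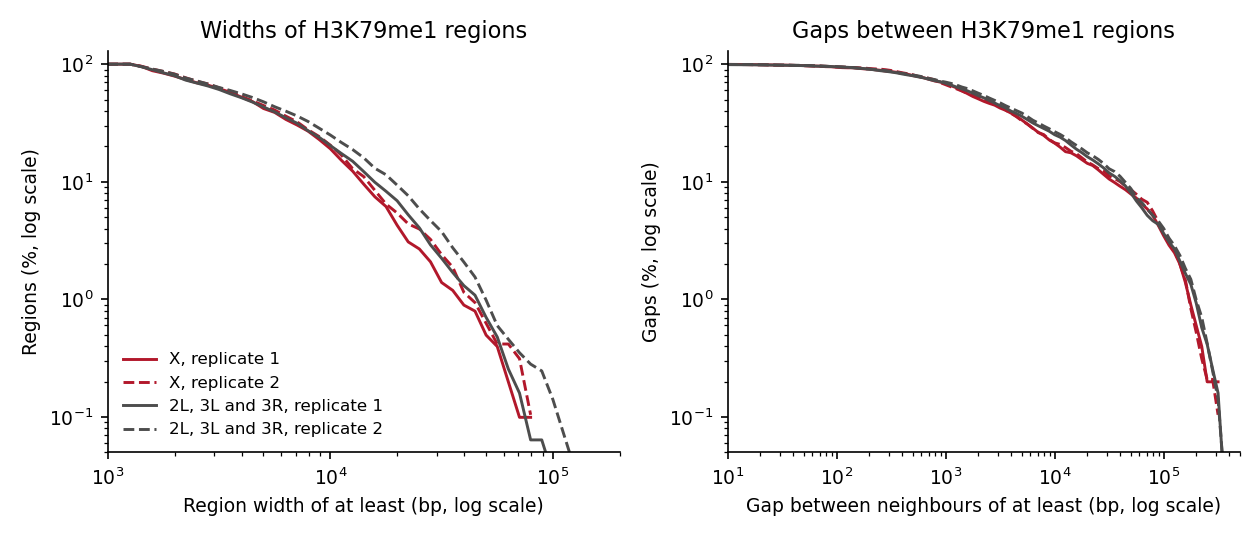
Left, the percentage of regions at least as wide as the value on the x axis (bp, log scale), and right, the percentage of gaps between neighbouring regions at least as long (bp, log scale), for X (red) and for 2L, 3L and 3R together (grey) in replicate 1 (solid) and replicate 2 (dashed), with log y axes. Below about 10 kb the width curves of X and the other arms run close together in replicate 1. In replicate 2 the X curve is already lower at 7943 bp, with 27.7% of regions against 32.5%. From 10 to 50 kb each X curve lies below that of the other arms in the same replicate, with 4.27% and 5.32% of X regions of at least 20 kb against 6.84% and 9.30%. Beyond 50 kb few regions remain.

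Spacing was the next question. Between neighbouring X regions the median gap came to 2100 bp in replicate 1 and to 2222 bp in replicate 2, against 2403 and 2726 bp on the background arms. The ratio was 0.845 ± 0.0416 (SD, n = 2), and X had the shorter median gap against each of the 3 arms in each replicate. Gaps under 1 kb were common everywhere. They made up 31.6% and 33.1% of X gaps in the 2 replicates, against 31.3% and 29.7% of background gaps. The separation was larger at intermediate lengths, with the 75th percentile at 7703 and 8073 bp on X, against 10146 and 11397 bp on the background arms. Gaps of at least 20 kb were 14.3% and 14.7% of those on X, against 16.3% and 17.6% on the background arms.

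Counted per Mb, the longest gaps did not follow this pattern, although as a share of gaps they were slightly fewer on X. Gaps of at least 50119 bp made up 7.87% and 8.57% of X gaps in replicates 1 and 2, against 8.06% and 8.75% of background gaps. X had 79 gaps of at least 50 kb in replicate 1 and 82 in replicate 2, or 3.87 and 4.02 per Mb, against 3.63 and 3.57 per Mb on the background arms. Such gaps took up 43.3% and 44.0% of the length of X, against 41.7% and 41.1% of the background arms. X exceeded 3L by a mean of 6.85 percentage points, and its difference from 2L and 3R was within 1.20 points of 0 in each replicate. Closely set regions on X thus went with about as much long empty sequence as on 2L or 3R.

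Regions on X stood in larger groups of near neighbours. When regions less than 5 kb apart were joined, X had 337 groups in replicate 1 and 317 in replicate 2, or 16.5 and 15.5 per Mb, against 16.3 and 15.7 per Mb on the background arms. A group held 2.99 regions on average on X in replicate 1 and 3.02 in replicate 2, against 2.77 and 2.60 on the background arms. X had the larger groups against each arm in each replicate, with ratios from 1.05 to 1.23. Once joined, broad stretches made up about the same share of groups on X as on the background arms together. This is a share of groups and not a density per Mb, the measure used above for broad regions. Groups of at least 20 kb made up 37.1% and 40.7% of groups on X, against 37.5% and 39.6% on the background arms. Against 2L alone this share was lower on X in each replicate, with 40.3% and 41.2% on 2L, which does not settle the density per Mb. Density per Mb was compared after joining only regions less than 1 kb apart. For stretches of at least 20 kb, X then had 0.918 ± 0.0486 (SD, n = 2) times the density of the background, against 0.670 before joining. The widest joined group of X spanned 14684144 to 14831810 (147.7 kb, 7 regions, 92.6% covered) in replicate 1. In replicate 2 it lay at the same place, 14687667 to 14831372 (143.7 kb, 7 regions, 90.7% covered). It was picked out after its values were seen.

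The local landscape around a region was measured from its edges. At 250 bp outside an edge, 11.2% of positions on X in replicate 1 and 9.29% in replicate 2 lay in another region of the same list, against 11.9% and 10.8% on the background arms. At 2 kb the shares were 46.97% and 46.3% on X, against 43.7% and 41.3% on the background arms. At 5 kb they were 49.95% and 51.3% on X, against 47.5% and 46.9%. At 50 kb they had come down to 37.1% and 39.4% on X, against 38.6% and 38.9%, and at 100 kb to 34.0% and 34.5%, against 35.0% and 35.9%, close to the covered share of the whole arms. Just outside an edge the share on X was thus below the covered share of the arm, and from 2 to 50 kb it was above it in each replicate. The share on X was above that of the background arms from 1 to 20 kb in each replicate. At 1 kb it was 31.6% and 33.1%, against 31.3% and 29.7%. At 50 kb the share on X was lower in replicate 1 and higher in replicate 2, and at 100 kb it was lower in each.

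**Figure D2:**
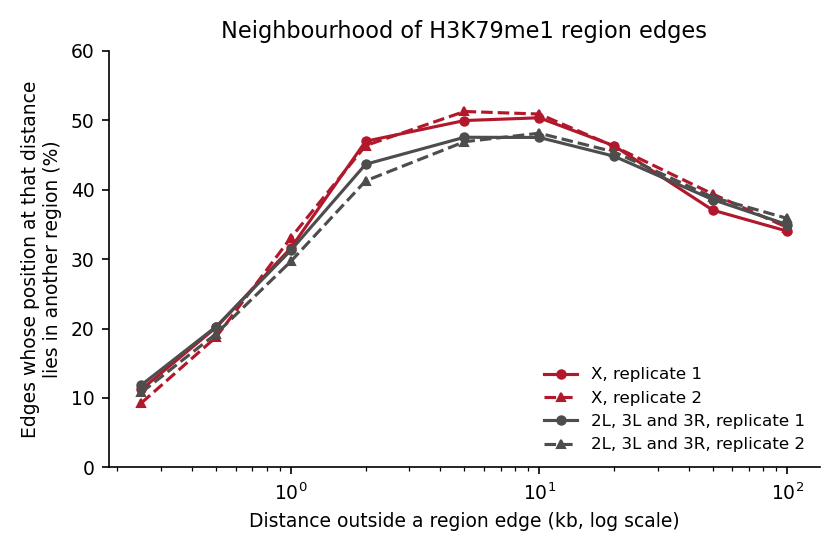
Percentage of region edges for which the position at a given distance outside the edge (x axis, kb, log scale) lies in another region of the same list, for X (red) and for 2L, 3L and 3R together (grey) in replicate 1 (circles, solid) and replicate 2 (triangles, dashed). The X curves lie above those of the other arms from 1 to 20 kb and reach 49.95% and 51.3% at 5 kb. At 50 kb X is lower in replicate 1 and higher in replicate 2, and at 100 kb it is slightly lower in each.

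Isolated regions made up a smaller share on X than on each of the other arms in each replicate. Regions with at least 20 kb of empty sequence on both sides numbered 27 of 1004 (2.69%) in replicate 1 and 24 of 956 (2.51%) in replicate 2, counting regions with a neighbour on each side. The background arms had 3.27% and 3.67%. Regions with a neighbour within 5 kb on both sides made up 46.7% and 45.3% of X regions, against 42.3% and 39.8%. Isolated X regions had a median width of 3187 bp in replicate 1 and 3893.5 bp in replicate 2, against 4256 and 4268.5 bp for all X regions with a neighbour on each side. Their median score percentile was 52.2 and 63.2, against 54.8 and 52.5, so these few regions were narrower in each replicate, while their scores were lower in replicate 1 and higher in replicate 2. Broad X regions were not set apart from others either. The nearer neighbour of an X region of at least 20 kb lay a median of 892 bp away in replicate 1 and 826 bp in replicate 2, and that of a region of 2 to 8 kb lay 774 and 873 bp away.

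The authors' score, whose scale the file headers do not name, had a higher median on X among narrow regions and among the widest. Under 4 kb and from 16 kb up, X was above each other arm in each replicate. From 4 to 16 kb this held in replicate 1 only. Scores are given as percentiles within each list, from 0 for the lowest to 100 for the highest, and describe regions only against others of the same list. X regions under 2 kb had a median score percentile of 20.9 in replicate 1 (n = 210 regions) and 18.4 in replicate 2 (n = 168). The background arms had 9.56 (n = 638) and 8.12 (n = 513), and each of 2L, 3L and 3R lay between 7.07 and 10.2. The difference was 10.8 percentile points ± 0.791 (SD, n = 2), with X higher than each arm in each replicate. It was also higher in the replicate set, where the medians were 25.2 on X and 12.6 on the background arms. Regions of 2 to 4 kb behaved alike, with 45.1 and 40.5 on X against 33.1 and 30.9. Among regions of 4 to 8 kb the medians were 68.8 and 60.6 on X, against 62.5 and 58.9. Among regions of 8 to 16 kb they were 82.6 and 76.9 on X, against 76.0 and 76.6, so that X and the background were within 1 point of each other in replicate 2. Among regions of at least 16 kb they were 83.3 and 86.0 on X, against 79.1 and 78.8, and X was higher than each arm in each replicate. In the replicate set X was not higher in that class, with 79.4 on X against 79.8.

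Low-scoring regions were scarce on X. The lowest 10% of each list held 3.58% of X regions in replicate 1 and 4.59% in replicate 2, against 11.5% and 11.4% of background regions. The highest 10% held 14.2% and 10.1% of X regions, against 8.91% and 9.51% of background regions. In replicate 2 X was thus near 10%, below 3R (10.3%) and above 2L (9.05%) and 3L (9.12%). The regions of the replicate set found in neither replicate had a median percentile of 28.3 on X and 15.1 on the background arms. Their median width on X was 1254 bp, so most fell in the class under 2 kb described above and are no separate observation. The copy number of X per embryo and the reads on each arm are not given, so the part of either in these scores was not tested.

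**Figure D3:**
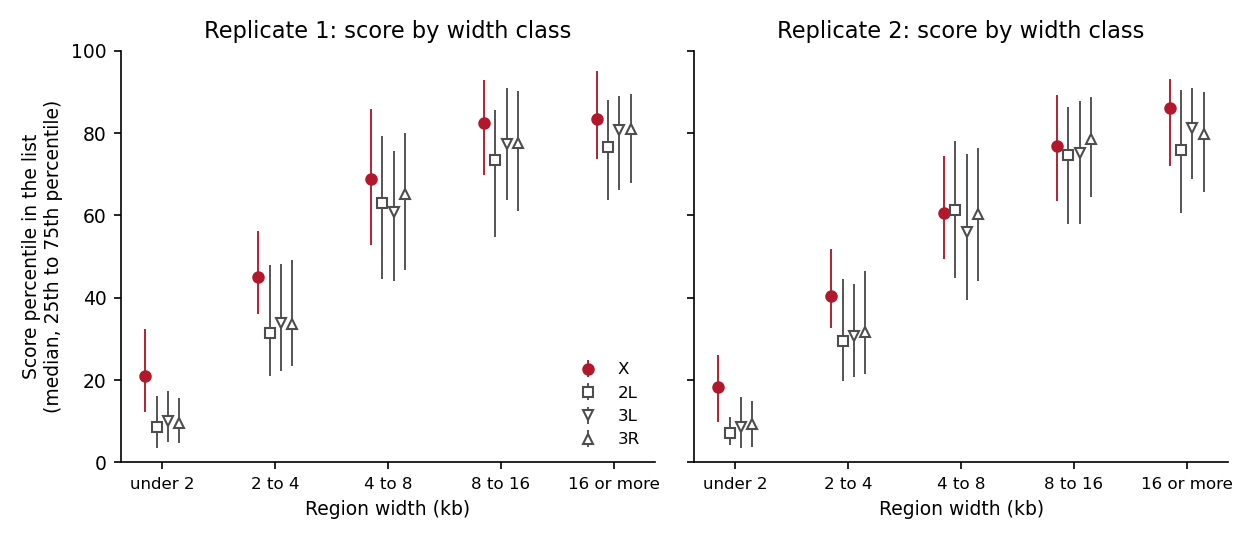
Score percentile within the list (y axis) by width class of the region (x axis, kb) for X (red, filled) and for 2L, 3L and 3R (grey, open) in replicate 1 (left) and replicate 2 (right). Points are medians and bars run from the 25th to the 75th percentile over regions. X stands above all 3 arms under 4 kb, by 10.8 points on average under 2 kb, and from 16 kb up, where the bars overlap widely. From 4 to 16 kb it does so in replicate 1 only.

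Along X the covered share was uneven but stayed within narrower bounds than on the other arms. Over the 20 full windows of 1 Mb it lay between 20.8% and 44.4% in replicate 1, and between 22.2% and 44.6% in replicate 2. Over the 68 windows of the background arms it lay between 9.47% and 59.2% in replicate 1, and between 9.47% and 62.4% in replicate 2. The SD over windows was 7.27 points in replicate 1 and 6.80 in replicate 2 on X, against 10.4 and 10.5 on the background arms. The ratio of these SDs was 0.673 ± 0.0390 (SD, n = 2), and X had the lower value against each arm, with means over the replicates from 10.1 to 11.2 on 2L, 3L and 3R. The ratio was 0.650 with windows begun 500 kb further on and 0.839 with windows of 500 kb. At 100 kb the SD was 24.9 and 25.5 points on X, against 24.7 and 25.7 on the background arms, higher in replicate 1 and lower in replicate 2. Neighbouring 100-kb windows of X had a Pearson correlation of 0.188 and 0.177 (203 pairs of windows), against 0.249 and 0.247 on the background arms (691 pairs). Windows 300 kb apart gave -0.101 and -0.113 on X, against 0.0735 and 0.0642. By arm, 3L was also negative at that distance (-0.0107 and -0.0480), while 2L and 3R were positive. Windows 1 Mb apart gave 0.0308 and 0.0255 on X, against 0.0228 and 0.0301. These correlations are across windows of the same libraries and are descriptions.

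**Figure D4:**
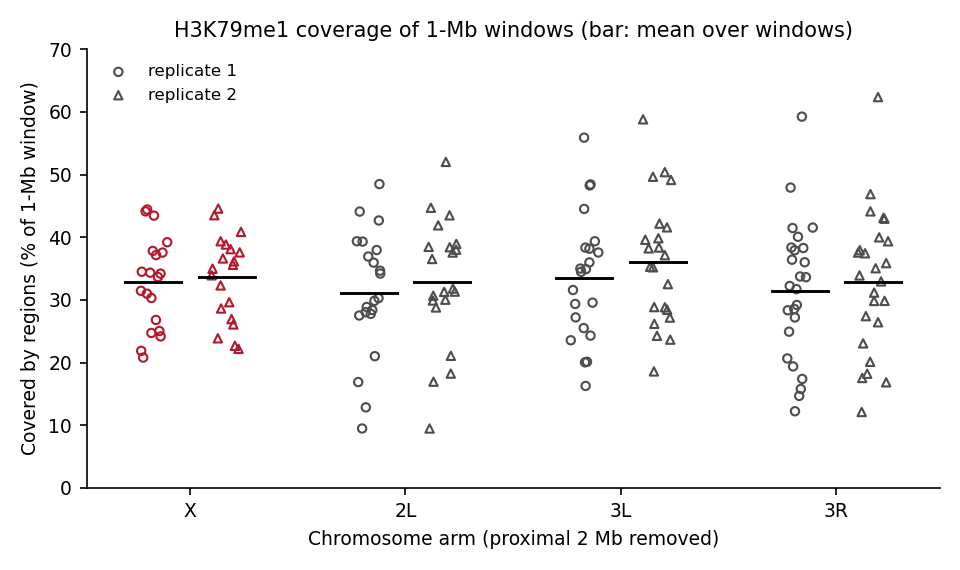
Covered share of each full 1-Mb window (y axis, %) on X (red) and on 2L, 3L and 3R (grey), with circles for replicate 1, triangles for replicate 2 and black bars for the mean over windows. The X windows lie between 20.8% and 44.6%, while the other arms reach from 9.47% to 62.4%.

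The densest 1-Mb window of X ran from 19000001 to 20000000, near the proximal limit, with a covered share of 44.4% in replicate 1 and 44.6% in replicate 2. The next was 11000001 to 12000000 (43.4% and 43.5%), and the one after it 1000001 to 2000000, near the distal tip (44.1% and 40.8%). The densest windows were thus spread over the arm and not gathered at an end. The densest held 56 regions in replicate 1 and 63 in replicate 2, with median widths of 4994.5 and 3743 bp. Its widest region measured 66147 bp in replicate 1 and 77039 bp in replicate 2.

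The sparsest 1-Mb window ran from 7000001 to 8000000 (20.8% and 22.7% in replicates 1 and 2), followed by 4000001 to 5000000 (21.9% and 22.2%) and 14000001 to 15000000 (24.2% and 23.9%). They held 36, 36 and 32 regions in replicate 1 and 36, 29 and 32 in replicate 2, with median widths from 2972 to 7448 bp. They differed in their broadest regions. The window from 7000001 had none wider than 18229 bp in replicate 1 and 25067 bp in replicate 2, whereas the one from 14000001 contained the widest region of X in each replicate, of 81691 and 81056 bp. Across the 20 windows, the covered share and the number of regions had a Spearman correlation of 0.625 in replicate 1 and 0.717 in replicate 2, a description across windows of the same libraries.

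At a finer scale the 3 fullest windows of 100 kb were 19300001 to 19400000 (92.4% in replicate 1 and 92.2% in replicate 2), 6500001 to 6600000 (90.5% and 93.5%) and 14700001 to 14800000 (93.1% and 90.1%). The window from 14700001 had 4 regions in each replicate, and the one from 19300001 had 4 in replicate 1 and 6 in replicate 2. The window from 6500001 had 9 in replicate 1 and 5 in replicate 2. The window from 14700001 began 225.9 kb past the end of the longest empty stretch.

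That stretch, in which no list had a region, ran from 14153025 to 14474108 (321.1 kb). The next longest ran from 7237891 to 7529408 (291.5 kb), from 4599735 to 4804591 (204.9 kb), from 13893675 to 14093927 (200.3 kb) and from 9676439 to 9871571 (195.1 kb). Together the 5 spanned 1.21 Mb, 5.94% of X inside the limits. Each lay in or beside one of the sparse megabases except the last. The longest and the 200.3-kb stretch were separated by only 59.1 kb, and that island was densely marked, since regions took up 83.8% of the 50 kb just distal to the longest stretch in replicate 1, and 83.1% in replicate 2. Other edges were bare. The 50 kb proximal to the 291.5-kb stretch had a covered share of 1.04% in replicate 1 and 5.80% in replicate 2. Around the 195.1-kb stretch the share in replicate 1 was 8.32% on the distal side and 7.13% on the proximal side. On X, 33 stretches of at least 100 kb without a region in any list took up 24.4% of X, against 30.3% of 2L, 16.8% of 3L and 26.3% of 3R. The longest on those arms were 276.2, 343.8 and 331.1 kb. The share of 100-kb windows without a region was 10.8% and 9.31% on X and 11.7% and 11.2% on the background arms, but with 50-kb windows X was higher by 1.80 points, so this measure set no direction.

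The broadest regions of the replicate set were compared with the calls of each replicate. The widest on X ran from 12111078 to 12193872 (82.8 kb). It was cut into 7 regions in replicate 1, covering 86.9% of it, and into 3 in replicate 2, covering 98.6%. The next widest, from 14727240 to 14809052 (81.8 kb), was a single region in each replicate, with 99.6% and 99.1% covered. The third, from 19255538 to 19332416 (76.9 kb), was 2 regions in replicate 1 (97.9%) and 1 in replicate 2 (99.7%), and it scored at the 99.5th percentile of the list. The fourth, from 6501830 to 6576998 (75.2 kb), was 3 regions in replicate 1 and 2 in replicate 2, and the fifth, from 9269016 to 9343780 (74.8 kb), 5 and 4. Each replicate, taken singly, covered at least 86.9% of every 1 of these 5, while the number of pieces differed in 4 of them. Their score percentiles ran from 65.2 to 99.5.

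The highest-scoring replicate-set region of X was under 2 kb wide and was not found in each replicate. Among those found in each replicate, the 5 highest-scoring were narrower than the 5 widest. Only the 6.67-kb region was below 7704 bp, the median width of X regions found in each replicate. All 5 exceeded 4595 bp, the median width of all replicate-set regions of X. They ran from 6134720 to 6149056 (14.3 kb, 99.7th percentile), from 12578370 to 12610664 (32.3 kb, 99.6th), from 13307094 to 13315394 (8.30 kb, 99.6th), from 13089492 to 13104358 (14.9 kb, 99.5th) and from 19096034 to 19102706 (6.67 kb, 99.5th). Each was a single region in each replicate, covered to between 94.6% and 98.3% in replicate 1 and between 96.5% and 99.4% in replicate 2, and each lay at or above the 97.8th percentile of both replicate lists. Their surroundings differed. The 8.30-kb region bordered 142235 bp without a region of the replicate set on its proximal side, whereas the 14.9-kb region had neighbours 247 and 39 bp away.

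The 2 replicates drew the same landscape on X. Over 204 windows of 100 kb the covered shares had a Pearson correlation of 0.985 and a Spearman correlation of 0.984, a description across windows of the same 2 libraries. The shares in replicates 1 and 2 differed by a median of 1.91 points and at most 18.0 points per 100-kb window. Per 1-Mb window they differed by at most 3.28 points, which is small beside the range of 21.7% to 44.5% between the means of the 1-Mb windows. Of the 204 windows, 19 had no region in either replicate, 3 had none in 1 replicate only, and 7 were at least 80% covered in each.

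**Figure D5:**
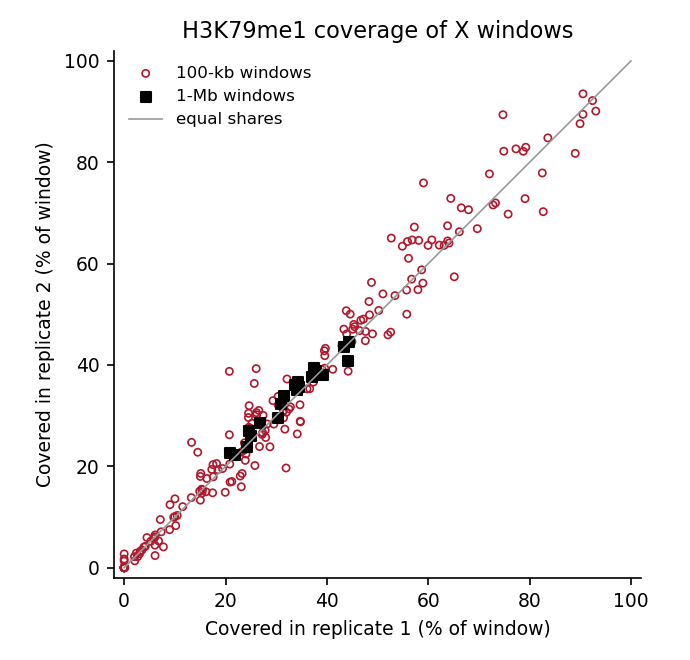
Covered share of each X window in replicate 1 (x axis, %) and replicate 2 (y axis, %), with open red circles for the 204 windows of 100 kb, black squares for the 20 windows of 1 Mb and a grey line for equal shares. Points follow the line, and the largest difference is 18.0 points at 100 kb and 3.28 points at 1 Mb.

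Base by base the agreement on X was slightly lower than elsewhere. The Jaccard index, the base pairs covered in both replicates divided by those covered in either, was 0.814 on X, against 0.839 on 2L, 0.825 on 3L and 0.857 on 3R. Of X regions, 898 of 1006 (89.3%) in replicate 1 overlapped a replicate 2 region by at least 1 bp, and 838 of 958 (87.5%) the other way round, against 91.5% and 86.5% on the background arms, so that X was lower in replicate 1 and higher in replicate 2. Where 1 region matched 1 region and nothing else, 491 pairs on X, the edges lay a median of 246.5 bp apart, with the middle 50% of offsets between 102 and 594.75 bp. The median was 202.5 bp on the background arms and between 191.5 and 213.5 bp on each of them. X regions found in 1 replicate only were narrow, with medians of 1639.5 bp (n = 108) in replicate 1 and 1727.5 bp (n = 120) in replicate 2. They were also low in score, although less so than elsewhere, with median percentiles of 29.2 and 23.1 on X, against 14.2 and 12.5 on the background arms.

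The widths within these pairs were also compared. The replicate 2 region was the wider in 251 of 491 pairs on X, with a median difference, replicate 2 minus replicate 1, of 10 bp. It was the wider in 896 of 1535 pairs on the background arms, with a median difference of 103 bp and of 71 to 138.5 bp on each arm.

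The replicate-set list on X was built mostly of regions seen in both replicates. Of its 986 regions, 658 (66.7%, 95% Wilson interval 63.7% to 69.6%, which covers counting error only) overlapped a region in each replicate. The share was 68.7% on the background arms together, and 66.9%, 66.6% and 72.5% on 2L, 3L and 3R. The 658 had a median width of 7704 bp and held 92.3% of the base pairs that the list covers on X, and 237 of them overlapped at least 2 regions of a replicate, up to 9. A further 83 were found in replicate 1 alone and 93 in replicate 2 alone. The other 152 (15.4%) were in neither, with a median width of 1254 bp and a maximum of 3175 bp. Because the list draws on the same 2 libraries, these shares are a description and no test.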

How the data were processed

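The submitters' processing notes name the aligner Bowtie, version 0.12.7. The authors deposited 3 lists of regions of significant enrichment on FlyBase release 5, per the file headers, each region with its first and last base (counted from 1, both included) and an enrichment value. That value, the deposited score, is the authors' own and was used only as a percentile within its list. For its scale, the caller, the threshold and how the replicate set was made, nothing is given in the sources used here. The inputs have no region list of their own in the files and were not analysed here.

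Regions were kept where they lay wholly inside the limits. Covered shares count each base of overlapping regions only a single time, and windows were counted from position 1. The interval code (Python 3.11.15, numpy 2.4.6, pandas 2.3.3, scipy 1.17.1) was tested on simulated data. No p-value was computed. The members, limits and comparisons were chosen with earlier results of these data known. Named regions, stretches and windows follow a fixed rule: the 5 widest and 5 highest-scoring replicate-set regions found in each replicate, the 5 longest empty stretches, the 3 densest windows of 1 Mb and of 100 kb, the 3 sparsest of 1 Mb, and the region on each side of the limit. The gene table at hand is on release 6 and was not placed on these positions, and no genome sequence was used.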

Additional observations from a re-analysis of the deposited data

How the results depend on the processing

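No paired analysis was possible because the inputs, which share replicate numbers with the ChIP libraries, have no region list here. The comparisons of regions of at least 20 kb, of scores under 2 kb and of 1-Mb windows, with their settings, were added after seeing the data. Leaving aside single replicates, of 66 recomputed values 27 moved by less than the spread of the replicates (or a counting interval), 35 moved by more and 4 reversed. For the Jaccard index the counting interval took base pairs as trials, although neighbouring bases are not independent. It was therefore very narrow, and every recomputed Jaccard index counted as moved. Reversal was judged only where both replicates had given the same direction and their mean lay further from no difference than their SD. This leaves out covered share and median width. The sign of the covered-share difference was not set: it was 1.50 points in the 50% of regions with the highest scores, 0.0120 after joining, -1.18 over whole arms, 0.810 in the replicate-set list, 1.04 against 2L, -2.04 against 3L and 0.562 against 3R. Regions per Mb differed by 2.68 after joining at 1000 bp, 3.65 over whole arms, 7.15 against 2L, 8.19 against 3R and, reversed, -0.334 against 3L. The median-width ratio was 0.864 in the highest-scoring 50% and 1.06, now above 1, against 3L, and the median-gap ratio 0.639 in the highest-scoring 50%, 0.744 in the replicate set and 0.904 against 3L. Empty 100-kb windows differed by -4.54 points in the highest-scoring 50%, -2.81 against 2L and -3.08 against 3R, and reversed to 0.975 over whole arms, 1.83 against 3L and 1.80 with 50-kb windows. The ratio for regions of at least 20 kb was 0.713 in the highest-scoring 50%, 0.918 after joining, 0.743 in the replicate set, 0.628 against 2L and 0.693 against 3L, and 0.776 and 0.843 at 15 and 30 kb, below 1 in each. The score difference under 2 kb was 12.6 in the replicate set and 11.9 against 2L. The SD ratio of 1-Mb windows was 0.790 over whole arms, 0.628 against 3R and 0.839 at 500 kb. The Jaccard index was 0.780 in the highest-scoring 50%, 0.823 after joining and 0.815 over the whole arm. The share found in both replicates was 79.3% in the highest-scoring 50%, 61.2% with 50% overlap and 73.8% when regions narrower than any in the replicates were left out. The cause of these changes was not tested. Leaving out either replicate only returns the value of the other. The covered-share difference then ran from -0.711 to 0.438 and changed sign, and the median-width ratio ran from 0.902 to 1.02. In the other 6 comparisons with the background both replicates had the same direction, so leaving 1 out could not change it. Unknown depth limits how far counts and widths of weak regions can be read.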

Other observations

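In the replicate-set list every start and every end is an even number (100% of 5330 regions), whereas in replicates 1 and 2 the starts were even in 49.3% and 50.4% of regions. Its starts and ends thus lie on a grid of 2 bp. Some neighbouring X regions lay almost against each other. Gaps of 10 bp or less numbered 5 in replicate 1, 7 in replicate 2 and 8 for the replicate set, and in replicate 1 a further pair of X regions touched. In the replicate set 46 regions had the smallest width of that list, 1001 bp.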
